A study of Rattus norvegicus with 6 samples.

Results

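The 36 aminoacyl-tRNA synthetase genes listed in the expression table were examined in myocardial tissue from 3 sham rats and 3 rats with myocardial ischemia/reperfusion injury (MI/RI). They were chosen by name from 28293 genes, as the symbols of 1 capital letter followed by ars, ars1 or ars2, with Eprs, Farsa and Farsb. Of the 36 genes, 20 encode cytosolic enzymes and 16, whose symbols end in ars2, encode mitochondrial enzymes. All animals were male and of wild-type genotype. MI/RI rats underwent 30 min of ischemia by ligation of a coronary artery (the left anterior descending), then 6 h of reperfusion. The sample labels give the same times for the sham group and do not say which piece of the heart was taken. The study describes its heat map of the sham and MI/RI groups as representative of 3 independent experiments. Beyond this and the separate sample labels, nothing states how the 3 samples of a group were obtained. The tests therefore measure the spread between these samples.

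Aminoacyl-tRNA synthetases join each amino acid to its tRNA and thereby set the supply of charged tRNA for protein synthesis. Cytosolic ribosomes and mitochondrial ribosomes use separate sets of tRNA, and most amino acids have a separate nuclear gene for the enzyme of each compartment. Gars (listed elsewhere as Gars1) and Kars (Kars1) are exceptions, since each encodes both forms. Mitochondrial Gln-tRNA is made without a synthetase of its own: it is first charged with glutamate by Ears2 and then converted by an amidotransferase. Eprs carries glutamate and proline activities in 1 protein, and cytosolic phenylalanyl-tRNA synthetase is built from the subunits encoded by Farsa (alpha) and Farsb (beta). Several cytosolic synthetase genes are known targets of ATF4, the transcription factor of the amino acid response.

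Expression was deposited as FPKM, fragments per kilobase of gene scaled to library size. Levels can thus be set side by side between genes, with limits given below for genes listed near 0 and for Kars. The defining cardiomyocyte markers were abundant in all samples. Their summed level (6 of 7 listed markers found) was 3461 to 11360 FPKM in the sham group, with the highest value in sham replicate 1, and 23347 to 33667 FPKM in the MI/RI group. All 6 passed the test as higher, beside 25.5% of all genes tested. The summed endothelial markers (6 of 6 found) spanned 158 to 209 FPKM in the sham group and 161 to 201 FPKM in the MI/RI group. The fibroblast markers (6 of 6 found) spanned 416 to 574 FPKM and 590 to 653 FPKM, the neutrophil and monocyte markers (6 of 6 found) 51.3 to 66.9 FPKM and 78.1 to 144 FPKM, and the pan-leukocyte markers (5 of 5 found) 28.0 to 38.6 FPKM and 27.1 to 29.2 FPKM. Hba-a2, the only red blood cell marker found of 4, spanned 1061 to 1154 FPKM and 583 to 1672 FPKM. The 13 mRNAs encoded by mitochondrial DNA took 80.1% to 86.2% of the summed FPKM in the sham group and 61.8% to 71.5% in the MI/RI group, with the lowest share in MI/RI replicate 1. A smaller share for these mRNAs leaves more of the library to all other genes. Each result was therefore also computed after every sample was rescaled to the same sum (1000000) over the genes that mitochondrial DNA does not encode, called the rescaled values below. Over all genes tested, the log2 fold change had a median of 0.29 as deposited and of −0.48 after rescaling. Of the 6 cardiomyocyte markers, Myl2 was not called after rescaling (limma adjusted p = 0.056), and the others were called higher. The part that cell composition or this share plays in the results was not tested, and in bulk tissue a larger number of cells of a type and more RNA per cell cannot be told apart.

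In the sham hearts, cytosolic synthetase genes spanned mean levels from 1.11 FPKM (Iars1, isoleucine) to 13.1 FPKM (Qars1, glutamine), with a median of 4.62 FPKM. The mitochondrial genes above 0 were lower, from 0.306 FPKM (Ears2) to 4.11 FPKM (Hars2, histidine), with a median of 1.15 FPKM over 14 genes. Farsb and Iars1, the lowest cytosolic genes, lay below the mitochondrial Hars2, Iars2, Cars2, Fars2, Vars2, Lars2 and Sars2. Iars1 stood at 1.19, 1.30 and 0.844 FPKM in sham replicates 1 to 3, while its mitochondrial counterpart Iars2 stood at 3.35, 2.87 and 2.32 FPKM. In the MI/RI hearts the cytosolic genes had a median of 8.18 FPKM and the mitochondrial genes a median of 1.72 FPKM. The leading gene also differed. Qars1 was first in the sham group (13.1 ± 1.87 FPKM) with Kars (lysine, 11.3 ± 1.61 FPKM) next, and Kars was first in the MI/RI group (27.8 ± 8.53 FPKM) with Qars1 next (16.5 ± 4.41 FPKM, SD, n = 3 each). The hearts' values of these neighbours overlapped in the sham group and did not overlap in the MI/RI group.

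**Figure D1:**
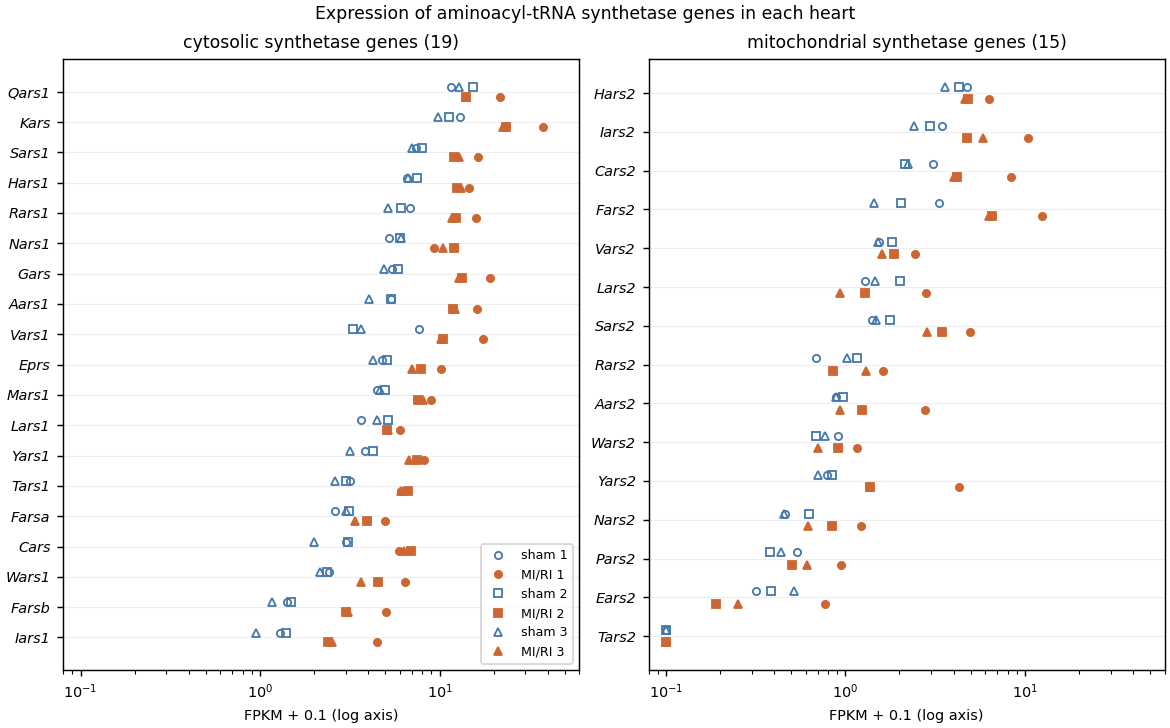
Expression of 34 synthetase genes in each heart, as FPKM + 0.1 on a log axis, with cytosolic genes on the left and mitochondrial genes on the right, ordered by their sham mean; open symbols are sham and filled symbols MI/RI hearts. The filled symbols lie to the right of the open ones without overlap for 17 of the 19 cytosolic genes drawn. MI/RI replicate 1 (filled circle) is the highest MI/RI heart for all 14 mitochondrial genes above 0, compared with 58.3% of all genes tested.

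The cytosolic synthetase genes were compared between the groups first. As deposited, 16 of 20 rose in the MI/RI group and none fell (limma, adjusted p under 0.05), where 25.5% of all 10942 genes tested were called higher and 7.36% lower. At an unadjusted p under 0.05, the count of lower genes was also 0. The largest log2 fold change was 1.47 and the median 1.02. In 17 of the 20 genes every MI/RI heart was above every sham heart, compared with 37.2% of all genes tested.

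Gars (ENSRNOG00000011052), the glycyl-tRNA synthetase of both compartments, had the largest difference among the cytosolic genes. It was measured at 5.31, 5.75 and 4.79 FPKM in the sham hearts and at 19.1, 13.2 and 12.8 FPKM in the MI/RI hearts. Every MI/RI heart was above every sham heart. The mean rose from 5.29 ± 0.479 to 15.0 ± 3.55 FPKM (SD, n = 3 each; log2 fold change 1.47, standard error 0.24, limma adjusted p = 0.0036). Aars1 (ENSRNOG00000018404), the alanyl enzyme, was close behind, with 5.28, 5.29 and 3.97 FPKM in the sham hearts and 16.1, 11.8 and 12.0 FPKM in the MI/RI hearts. Its log2 fold change was 1.44 (standard error 0.24, limma adjusted p = 0.0037). Farsb (ENSRNOG00000014119) stood at 1.31, 1.38 and 1.07 FPKM in the sham hearts and at 4.96, 2.89 and 3.0 FPKM in the MI/RI hearts. This is a log2 fold change of 1.42 (standard error 0.26, limma adjusted p = 0.0053). Vars1 (ENSRNOG00000000867), the valyl enzyme, was less even in the sham group, with 7.63 FPKM in replicate 1 and 3.22 and 3.54 FPKM in replicates 2 and 3. Its MI/RI hearts stood at 17.4, 10.4 and 10.0 FPKM (log2 fold change 1.44, standard error 0.36, limma adjusted p = 0.014). Sham replicate 1, the high sham heart for Vars1, also had the highest cardiomyocyte markers of the sham group. The call of Vars1 was lost without sham replicate 2 and without sham replicate 3.

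Iars1 (log2 fold change 1.33), Cars (cysteine, 1.27), Kars (1.26), Rars1 (arginine, 1.14), Tars1 (threonine, 1.10), Wars1 (tryptophan, 1.04) and Yars1 (tyrosine, 1.0) also rose, each to a mean at least 2.02 times that of the sham group. Kars was the most abundant of them, with 12.9, 11.2 and 9.71 FPKM in the sham hearts and 37.6, 23.4 and 22.4 FPKM in the MI/RI hearts. Kars has a pseudogene in the RefSeq gene table, so its reads may be shared. Tars1 and Cars were even within the MI/RI group, and MI/RI replicate 1 was not their highest heart. Tars1 stood at 3.08, 2.90 and 2.53 FPKM against 6.00, 6.59 and 5.97 FPKM. Smaller increases were measured for Hars1 (0.95), Sars1 (serine, 0.87), Nars1 (asparagine, 0.87), Eprs (0.81) and Mars1 (methionine, 0.80). The call of Eprs was lost without MI/RI replicate 1, without MI/RI replicate 2, without sham replicate 2 and without sham replicate 3. Those of Mars1, Sars1 and Wars1 were lost without sham replicate 3, and that of Nars1 without MI/RI replicate 2. MI/RI replicate 1 had the highest level within its group for 17 of the 20 genes, and for 58.3% of all genes tested. Without MI/RI replicate 1, 15 of the 20 were called higher and none lower, compared with 18.9% and 5.45% of all genes tested (limma). None was lower at an unadjusted p under 0.05 as well. With no filter on low values, which left 19226 genes to test, 16 cytosolic and 3 mitochondrial genes were called higher, beside 11.4% of all genes higher and 3.32% lower.

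After rescaling, none of the 20 cytosolic genes passed the test in either direction (limma), against 7.06% of all genes tested called higher and 25.9% lower. At an unadjusted p under 0.05, 4 were higher and none lower. The median log2 fold change of the cytosolic genes was then 0.26, while the median of all genes was −0.48. In 6 genes (Gars, Vars1, Aars1, Farsb, Kars and Rars1) the MI/RI hearts still lay above the sham hearts without overlap, compared with 11.4% of all genes tested. Relative to the median of all genes, the cytosolic median was higher by 0.73 as deposited and by 0.74 after rescaling. The log2 fold changes of Qars1, Lars1 and Farsa turned from above 0 to below 0. The smallest adjusted p was that of Gars (log2 fold change 0.70, limma adjusted p = 0.054). Without sham replicate 1, 2 of the rescaled cytosolic genes were called higher (Aars1 and Vars1), and Lars1 and Qars1 were among those called lower. With each rat left out of the rescaled values, 461 to 928 of all 10942 genes tested were called higher and 1137 to 4832 lower. These single calls are therefore given as descriptions.

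**Figure D2:**
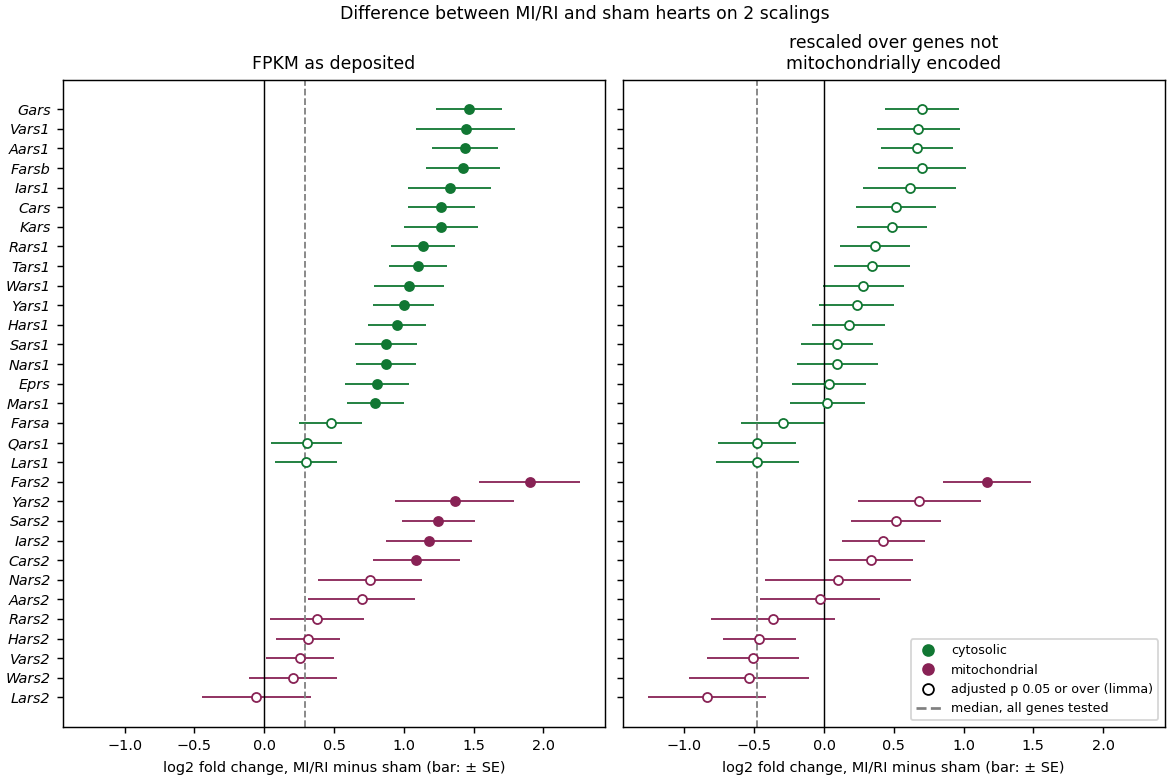
Log2 fold change (MI/RI minus sham) with its standard error for 31 of the synthetase genes tested, as deposited on the left and after rescaling over genes not encoded by mitochondrial DNA on the right; filled points passed the test in limma and the dashed line is the median of all genes tested. On the left 16 cytosolic and 5 mitochondrial genes are filled, and on the right Fars2 is the only filled point.

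No cytosolic gene had a negative log2 fold change as deposited, and Lars1 (leucine), Qars1 and Farsa were among those that did not pass the test. Lars1 stood at 3.56, 5.08 and 4.39 FPKM and at 5.94, 4.97 and 5.08 FPKM (log2 fold change 0.30, limma adjusted p = 0.33). The groups overlapped, with MI/RI replicate 1 the highest heart. Qars1, at 11.5, 15.2 and 12.7 FPKM in the sham hearts, was measured at 21.6, 13.9 and 14.0 FPKM in the MI/RI hearts (log2 fold change 0.30, limma adjusted p = 0.38).

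The ratio of 2 genes within a heart does not depend on how the library was scaled, apart from the pseudocount of 0.1. The ratios in this paragraph were chosen after the values were seen and are given as descriptions. The log2 ratio of Gars to Qars1 was −1.11, −1.39 and −1.39 in the sham hearts and −0.17, −0.08 and −0.13 in the MI/RI hearts. Gars was thus well below Qars1 in every sham heart and near it in every MI/RI heart. The subunits of cytosolic phenylalanyl-tRNA synthetase, which enter the enzyme in equal numbers, also differed. The log2 ratio of Farsb to Farsa was −0.89, −1.08 and −1.38 in the sham hearts and 0.02, −0.39 and −0.13 in the MI/RI hearts. In FPKM, Farsa stood at 2.51, 3.04 and 2.93 in the sham hearts and at 4.88, 3.83 and 3.30 in the MI/RI hearts (log2 fold change 0.47, standard error 0.23, limma adjusted p = 0.14).

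Of the cytosolic enzymes, 8 sit in the multisynthetase complex with 3 scaffold proteins. As deposited, 5 of these 8 genes rose (Eprs, Iars1, Kars, Mars1 and Rars1), with a median log2 fold change of 0.80, where 25.5% of all genes were called higher. Outside the complex 11 of 12 rose, with a median of 1.07, and Farsa was the exception. The difference between these subsets was not tested, and after rescaling the medians were 0.03 and 0.31. The scaffold genes all rose as deposited. Aimp2, the core scaffold, was measured at 10.9, 6.18 and 6.28 FPKM in the sham hearts and at 29.0, 19.3 and 18.8 FPKM in the MI/RI hearts (log2 fold change 1.53, standard error 0.29, limma adjusted p = 0.0058). It stayed called after rescaling (log2 fold change 0.76, limma adjusted p = 0.035). Aimp1 (0.82, limma adjusted p = 0.041) and Eef1e1, also known as Aimp3 (0.89, limma adjusted p = 0.021), were not called after rescaling. Without MI/RI replicate 1, their adjusted p values were 0.087 and 0.056 (limma). Enzymes of class I and class II, the structural families of synthetases, had like medians, 1.04 over 9 genes and 1.03 over 10 genes, leaving out Eprs, which holds a domain of each.

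All 7 cytosolic genes whose promoter held the element described next were among the 16 that rose. Of the 10 cytosolic genes whose promoter was searched without a match, 7 rose as well. Over all genes tested, 25.5% were called higher. ATF4 binds with C/EBP partners at a composite element, which reads TTGCATCA on 1 strand and TGATGCAA on the other. RefSeq promoter windows (build GRCr8, 250 bases before to 50 after the gene start) were found for 32 of the 36 genes, 17 cytosolic and 15 mitochondrial. TTGCATCA was searched on both strands in each. It was found in 7 of the 17 cytosolic promoters (41.2%) and in none of the 15 mitochondrial ones, while 0.827% of the 27457 genes with a window held it. The looser form TGATGNAA, which includes it, was in 4.16% of all genes with a window, in the same 7 cytosolic genes and in no mitochondrial gene. The following windows of 30 bases show 3 of the matches before the gene start, with the match in capitals.
Iars1: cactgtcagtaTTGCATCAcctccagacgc
Mars1: gcccgttccggTTGCATCAgcgtgggctcc
Tars1: ctggcgtcccgTTGCATCAgctggttagct
The windows of Iars1 (chr17:15193658-15193687), Mars1 (chr7:65023752-65023781) and Tars1 (chr2:62114811-62114840) lie on the minus strand. Counted from the gene start, the first base of the match is at −24 in Iars1, −17 in Mars1 and −27 in Tars1. In Nars1 it is at −14, and in Cars and Yars1 it lies after the start, at 18 and 39.

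The log2 fold changes of these 7 genes ran from 0.80 to 1.44 (median 1.10), and after rescaling from 0.02 to 0.67 (median 0.34). The 10 cytosolic genes with a window and no match ran from 0.30 to 1.44 (median 0.91, 7 of 10 called higher), and after rescaling from −0.48 to 0.70 (median 0.14). The ranges overlap, and Vars1 and Farsb are among those without a match. A match is a description of the letters in the window and not of binding. CACGTG, the E-box, was searched too. It was found in 5 of 17 cytosolic promoters (Aars1, Farsb, Iars1, Tars1 and Vars1) and in 1 of 15 mitochondrial ones (Ears2), with 7.08% of all genes with a window.

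The mitochondrial enzymes were examined next. Of the 16 genes, 12 passed the filter of a mean of at least 0.5 FPKM. As deposited, 5 of these 12 rose and none fell (limma), beside the 25.5% and 7.36% of all genes, and at an unadjusted p under 0.05 none was lower either. Their median log2 fold change was 0.73, higher by 0.44 than the median of all genes. The 5 were Fars2 (phenylalanine), Yars2, Sars2, Iars2 and Cars2. Without MI/RI replicate 1 the count was 3 (18.9% of all genes tested were then higher), and without sham replicate 2 or without sham replicate 3 it was 2. MI/RI replicate 1 had the highest level in its group for 14 of the 14 mitochondrial genes above 0, and for 58.3% of all genes tested. After rescaling it did so again for the 14 genes, when this was true of 40.6% of all genes tested. The summed level of the mitochondrial enzymes was 22.0, 20.7 and 17.5 FPKM in the sham hearts and 59.1, 31.4 and 30.5 FPKM in the MI/RI hearts. On the rescaled values it was 122, 155 and 136 in the sham hearts and 212, 131 and 130 in the MI/RI hearts. On this scale only MI/RI replicate 1 lay above the sham range. The same was true of the summed cytosolic enzymes. They stood at 563, 793 and 711 in the sham hearts and at 858, 751 and 742 in the MI/RI hearts. After rescaling, 1 of the 12 mitochondrial genes tested was called higher, beside 7.06% of all genes.

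Fars2 (ENSRNOG00000016135) had the largest difference of the whole family. It was measured at 3.23, 1.93 and 1.34 FPKM in the sham hearts and at 12.3, 6.42 and 6.18 FPKM in the MI/RI hearts. Every MI/RI heart was above every sham heart. The mean rose from 2.17 ± 0.968 to 8.30 ± 3.45 FPKM (SD, n = 3 each; log2 fold change 1.90, standard error 0.36, limma adjusted p = 0.0057). Fars2 moved from rank 22 to rank 10 among the 34 synthetase genes above 0. It was the only synthetase gene of either compartment still called after rescaling with all samples (log2 fold change 1.17, standard error 0.31, limma adjusted p = 0.013). This rescaled call was lost without MI/RI replicate 1 and without sham replicate 3, and as deposited it held with each heart left out in turn (log2 fold change 1.59 to 2.22).

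Sars2 rose from 1.31, 1.67 and 1.37 FPKM in the sham hearts to 4.86, 3.36 and 2.76 FPKM in the MI/RI hearts (log2 fold change 1.25, standard error 0.26, limma adjusted p = 0.0077), and its call held with each heart left out. Yars2 stood at 0.690, 0.739 and 0.607 FPKM and at 4.19, 1.26 and 1.26 FPKM. The MI/RI group was here carried by replicate 1, without which the log2 fold change of 1.36 (limma adjusted p = 0.034) became 0.81 (limma adjusted p = 0.066). The call of Yars2 was also lost without sham replicate 1, without sham replicate 2 and without sham replicate 3. Iars2 was measured at 10.3, 4.67 and 5.73 FPKM in the MI/RI hearts (log2 fold change 1.18, limma adjusted p = 0.017). Cars2 was measured at 2.96, 2.05 and 2.13 FPKM in the sham hearts and at 8.29, 4.09 and 3.93 FPKM in the MI/RI hearts (1.09, limma adjusted p = 0.025). The call of Cars2 was lost without MI/RI replicate 1, without sham replicate 2 and without sham replicate 3, and that of Iars2 without sham replicate 2 and without sham replicate 3.

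At the other end were Lars2, Wars2 and Vars2. Lars2 (leucine), the only synthetase gene tested with a log2 fold change below 0 (−0.06, standard error 0.39, limma adjusted p = 0.93), stood at 1.19, 1.91 and 1.36 FPKM in the sham hearts and at 2.69, 1.19 and 0.837 FPKM in the MI/RI hearts. Its MI/RI hearts lay on both sides of the sham range, and without MI/RI replicate 1 the log2 fold change was −0.51. Wars2 was measured at 0.807, 0.588 and 0.670 FPKM and at 1.06, 0.809 and 0.601 FPKM (log2 fold change 0.21, limma adjusted p = 0.65). Vars2, at 1.44, 1.71 and 1.42 FPKM in the sham hearts and 2.33, 1.77 and 1.5 FPKM in the MI/RI hearts, had a log2 fold change of 0.26 (limma adjusted p = 0.44). Hars2, the highest mitochondrial gene in the sham hearts, stood there at 4.65, 4.20 and 3.49 FPKM and at 6.23, 4.71 and 4.52 FPKM in the MI/RI hearts (0.31, limma adjusted p = 0.32). Rars2 (0.38), Aars2 (0.70) and Nars2 (0.76) did not pass the test either. Nars2 averaged 0.415 FPKM in the sham group and passed the filter through its MI/RI values. After rescaling, the log2 fold changes of Aars2, Hars2, Rars2, Vars2 and Wars2 were below 0 like that of Lars2, and the MI/RI hearts lay below the sham hearts without overlap for Hars2 and Wars2, compared with 36.9% of all genes tested.

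The mitochondrial genes under the filter included Pars2 (proline), Ears2 and Tars2 (threonine). Pars2 was measured at 0.435, 0.279 and 0.340 FPKM in the sham hearts and at 0.845, 0.405 and 0.510 FPKM in the MI/RI hearts. Ears2, on which the mitochondrial supply of Gln-tRNA also depends, was measured at 0.217, 0.286 and 0.415 FPKM and at 0.664, 0.0904 and 0.151 FPKM. Such low levels rest on few fragments. Tars2 was listed at 0 in all 6 samples, and so was Ppp1r15a, a subunit of the eIF2 alpha phosphatase, while Eef1a1, the general elongation factor of protein synthesis, was listed at no more than 0.0444 FPKM. A value of 0 in this table therefore does not show that a gene is silent. Mars2, the mitochondrial methionyl enzyme, was not analysed here.

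For 12 amino acids, 13 ratios of a cytosolic to a mitochondrial enzyme could be formed within each heart, since phenylalanine has 2 cytosolic subunits. The log2 ratio was higher in every MI/RI heart than in every sham heart for 3 pairs and lower for 2, where 24.6% of all ordered pairs of genes tested did so in a given direction. The median change was 0.18, and 9 of 13 changes were above 0. Neither count exceeds that share, so the ratios that follow are given as descriptions. By same-numbered pairs of hearts, a comparison chosen after seeing the data, 4 ratios were higher in all 3 pairs (the same 3 and Iars1 to Iars2) and 3 were lower in all 3 (the same 2 and Farsb to Fars2), beside 32.4% of all ordered gene pairs in a given direction. A single ratio cannot reach a p under 0.25 by pairs, nor a p under 0.1 in an exact permutation test of 3 hearts against 3. For the valyl enzymes the log2 ratio of Vars1 to Vars2 was 2.32, 0.87 and 1.25 in the sham hearts and 2.85, 2.49 and 2.66 in the MI/RI hearts (two-sided exact permutation test, p = 0.1). For tryptophan (Wars1 to Wars2) it was 1.42, 1.78 and 1.5 in the sham hearts and 2.47, 2.32 and 2.39 in the MI/RI hearts (two-sided exact permutation test, p = 0.1). Rars1 to Rars2 (0.76) and Aars1 to Aars2 (0.74) also had large changes, with groups that overlapped. For histidine, named after its values were seen, the ratio of Hars1 to Hars2 changed by 0.64, from 0.73 ± 0.22 to 1.36 ± 0.15 (SD, n = 3 each; two-sided exact permutation test, p = 0.1). The opposite was measured for 1 of the phenylalanine subunits, with a log2 ratio of Farsa to Fars2 of −0.35, 0.63 and 1.08 in the sham hearts and −1.31, −0.73 and −0.89 in the MI/RI hearts. For the other subunit, Farsb to Fars2, the groups overlapped, at −1.24, −0.46 and −0.30 in the sham hearts and −1.29, −1.12 and −1.02 in the MI/RI hearts (two-sided exact permutation test, p = 0.3). Sars1 to Sars2 was also lower, by 0.38. For Yars1 to Yars2, MI/RI replicate 1 stood apart at 0.93, with 2.46 and 2.32 in the other MI/RI hearts and 2.17 to 2.34 in the sham hearts. With MI/RI replicate 1 so placed, the summed cytosolic level was 4.06 times the summed mitochondrial one in that heart, 5.73 and 5.72 times in the other MI/RI hearts, and 4.60 to 5.21 times in the sham hearts.

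**Figure D3:**
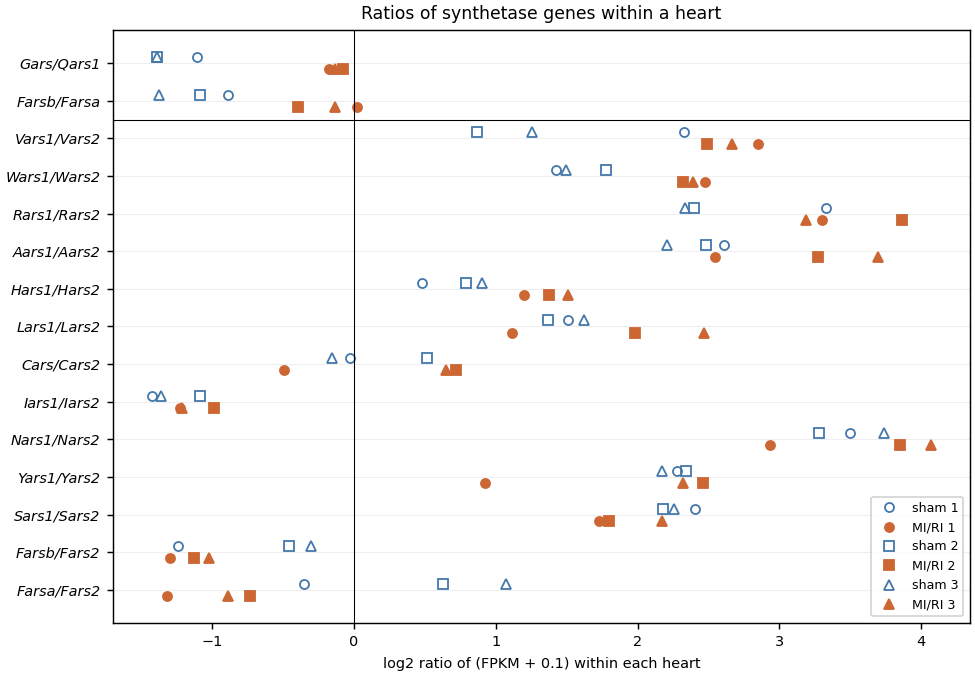
Log2 ratio of (FPKM + 0.1) of 2 genes within each heart, with 13 cytosolic to mitochondrial pairs below the line, ordered by their change, and 2 cytosolic pairs chosen after the values were seen above it; open symbols are sham and filled symbols MI/RI hearts. The groups are apart for Vars1/Vars2, Wars1/Wars2 and Hars1/Hars2 (higher in MI/RI) and for Sars1/Sars2 and Farsa/Fars2 (lower), and both pairs above the line are higher in MI/RI.

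The genes around tRNA charging were then examined as lists. The mitochondrial amidotransferase that finishes Gln-tRNA has the subunit genes Qrsl1, Gatb and Gatc. In each of them every MI/RI heart was above every sham heart as deposited (37.2% of all genes), and 1 passed the test (25.5% of all genes). Gatc stood at 0.680, 1.05 and 0.439 FPKM in the sham hearts and at 2.87, 1.33 and 1.53 FPKM in the MI/RI hearts (log2 fold change 1.28, limma adjusted p = 0.027, and 0.089 without MI/RI replicate 1). Qrsl1 had a log2 fold change of 1.05 (limma adjusted p = 0.063) and Gatb one of 0.65 (limma adjusted p = 0.071), and none of the 3 was called after rescaling (limma; none at an unadjusted p under 0.05 either). With the replicate number as a block, all 3 were called as deposited. Of 7 synthetase-like and editing genes tested, Aarsd1 (1.02) and Dtd1 (0.69) rose, and Sepsecs, which completes selenocysteinyl-tRNA, fell by 0.69 on the log2 scale (limma adjusted p = 0.049). Over all genes tested, 25.5% were called higher and 7.36% lower. The adjusted p of Sepsecs was 0.089 and that of Aarsd1 0.055 without MI/RI replicate 1 (limma), and the call of Sepsecs was lost with the replicate block. After rescaling none of the 7 was called higher (limma; none at an unadjusted p under 0.05), with Aarsd1 at 0.25 (limma adjusted p = 0.48) and Dtd1 at −0.067 (limma adjusted p = 0.87). Sepsecs (−1.5, limma adjusted p = 0.0078) and Pstk (−1.13, limma adjusted p = 0.0075), the kinase that acts before Sepsecs, were then called lower, beside 25.9% of all genes.

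The amino acid response list holds ATF4, its partners and targets. Of 35 listed genes, 33 were found and 23 tested, of which 13 rose and 1 fell as deposited, with a median log2 fold change of 1.28, beside 25.5% of all genes higher and 7.36% lower. After rescaling 7 were called higher and 3 lower, beside 7.06% and 25.9% of all genes. The 3 called lower were Pck2 (−2.45), Ddit4 (−1.38, limma adjusted p = 0.012) and Sesn2 (−1.23, limma adjusted p = 0.016). As deposited, Ddit4 and Sesn2 were not called. Atf4 itself stood at 40.6, 44.1 and 48.9 FPKM in the sham hearts and at 98.3, 140 and 90.6 FPKM in the MI/RI hearts (log2 fold change 1.28, limma adjusted p = 0.0061), and was not called after rescaling (0.49, limma adjusted p = 0.19). Atf3, a stress-induced relative of Atf4, had the largest difference. It was measured at 1.68, 1.25 and 1.62 FPKM in the sham hearts and at 54.4, 59.5 and 19.1 FPKM in the MI/RI hearts (log2 fold change 4.63, limma adjusted p = 0.00032). Cebpb (3.65), Chac1 (3.25), which breaks down glutathione, and Slc7a5 (3.06), a transporter of large neutral amino acids, followed. Cebpb, a partner of ATF4, was uneven in the sham hearts, at 23.7, 6.85 and 3.16 FPKM, and stood at 126, 91.5 and 93.1 FPKM in the MI/RI hearts. Slc7a5 stood at 0.329, 0.220 and 0.314 FPKM in the sham hearts and at 2.18, 3.76 and 3.63 FPKM in the MI/RI hearts. For both genes every MI/RI heart was above every sham heart. The amino acid transporters Slc7a1, Slc7a5, Slc1a4 and Slc1a5 were called higher after rescaling as well, with log2 fold changes of 1.69, 2.61, 1.43 and 1.09. The listed transporter genes Slc3a2 (0.50, limma adjusted p = 0.13) and Slc38a2 (−0.28, limma adjusted p = 0.43) were not called after rescaling. Slc7a11 and Slc6a9 were under the filter. Chac1, Slc7a1, Slc7a5 and Slc1a4 passed the filter through their MI/RI values. They are included in the counts of 13 and 7 genes called higher, so these counts favour higher genes. Pck2, the mitochondrial form of phosphoenolpyruvate carboxykinase, went against the list, from 3.66, 5.84 and 5.06 FPKM to 1.80, 1.19 and 1.53 FPKM (log2 fold change −1.62, limma adjusted p = 0.0035). Asns, the asparagine synthetase gene and a classical ATF4 target, was under the filter.

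The kinases that phosphorylate eIF2 alpha lie upstream of ATF4 and were listed with their phosphatases and regulators. Of 8 genes tested in this list none was called higher (limma; 2 at an unadjusted p under 0.05) and 2 fell, beside 7.36% of all genes called lower. Eif2ak3, the endoplasmic reticulum kinase PERK, stood at 1.53, 1.91 and 2.01 FPKM in the sham hearts and at 1.03, 1.05 and 0.689 FPKM in the MI/RI hearts (log2 fold change −0.92, limma adjusted p = 0.025). Impact, an inhibitor of the uncharged-tRNA sensor GCN2, had a log2 fold change of −1.06 (limma adjusted p = 0.035, and 0.10 without MI/RI replicate 1). Eif2ak4, which encodes GCN2, was measured at 1.02, 1.39 and 1.16 FPKM and at 0.764, 0.965 and 0.802 FPKM (−0.45, limma adjusted p = 0.22). After rescaling Eif2ak3, Impact and Eif2ak4 (−1.25, limma adjusted p = 0.028) were called lower, beside 25.9% of all genes.

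**Figure D4:**
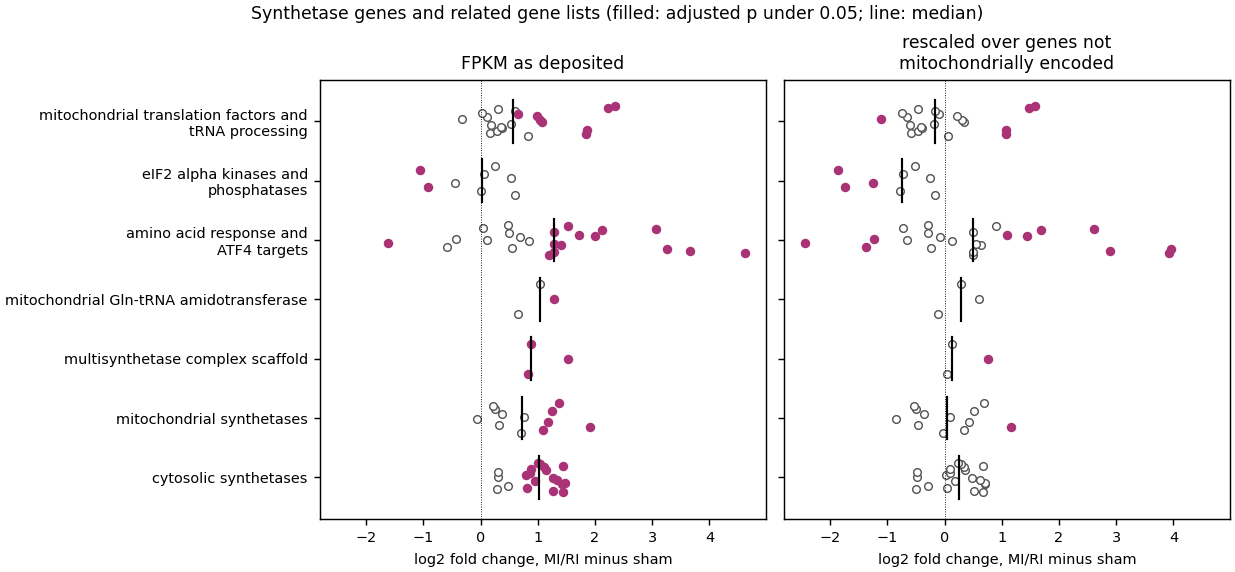
Log2 fold change (MI/RI minus sham) of each gene tested in 7 lists, as deposited on the left and after rescaling on the right; each point is a gene, filled where it passed the test in limma, and the line is the median of its list. After rescaling the cytosolic synthetase list has no filled point, while the amino acid response list has 7 filled points above 0 and 3 below. Those above 0 include Chac1, Slc7a1, Slc7a5 and Slc1a4, which passed the filter through their MI/RI values.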

How the data were processed

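FPKM values for 30452 rat Ensembl genes in 6 myocardial samples were deposited by the authors. The submitters' processing notes name STAR and HTSeq. Their versions, the genome build, the annotation and the library total are not given in the sources used here. The labels state a stranded total RNA kit. Rows sharing a symbol were summed. Genes averaging 0.5 FPKM or more (10942) were compared as log2(FPKM + 0.1) with limma 3.58.1 in R 4.3.3 (intensity trend, Benjamini-Hochberg adjustment over all genes tested, threshold 0.05). Standard errors are limma's moderated ones, and fold changes on this scale understate those of low genes. For the rescaled values, each sample was divided by its sum without the 13 mitochondrially encoded mRNAs and brought to a common total of 1000000, keeping the pseudocount. The fit was tested on simulated data. The members and lists were chosen with earlier results of these data known.

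The absolute depth is unknown. Values of low genes moved in whole steps, within 0.02, in all samples for 83.6% of 2552 genes, and gave depths of 1.00 to 1.18 in the sham group and 0.873 to 0.935 in the MI/RI group relative to sham replicate 1. The replicate numbers come from the labels. After subtracting group means, samples with the same number correlated at 0.20, 0.12 and 0.12. The main fit did not pair the samples. The numbers were used as pairs only in the replicate block and in the ratios by same-numbered pairs. The genes given with values in each sample are, by rule, the members with the largest and smallest differences and levels of each compartment, the amino acids whose ratio changed most, the scaffold and amidotransferase genes, and up to 4 called genes of each related list with the largest change. Iars1, Tars1, the other members with values in each sample and the genes of the response list beyond the largest 4 were added after their values were seen. Alternatives were other pseudocounts and filters, TPM, median centring, quantile normalization, no trend, a replicate block, leaving out each rat, the highest row per symbol and an adjusted p threshold of 0.01. Leaving out each rat, or the block, together with rescaling, and the ratios by same-numbered pairs, were chosen after seeing the data. Coordinates and promoter sequences are from RefSeq (GRCr8). Single values of 2 member genes and 1 promoter window are not reported here, and the counts over the lists include these genes.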

Additional observations from a re-analysis of the deposited data

How the results depend on the processing

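The calls of the cytosolic synthetases differed between some of the scalings of the libraries. Of 20 cytosolic genes, 16 were called higher as deposited, and also 16 after median centring and 16 for TPM. The count was 9 after quantile normalization, 9 at an adjusted p threshold of 0.01 and 0 after rescaling (limma, 4 at an unadjusted p under 0.05). Without Gars and Kars, 14 of 18 were called higher as deposited. Of the mitochondrial genes 5 were called as deposited, 2 at the threshold of 0.01, 3 after median centring, 3 with no filter on low values, 1 after rescaling and 1 with a mean of at least 5 FPKM, where Fars2 was the gene tested (1.90). With each rat left out the counts were 11 to 16 cytosolic and 2 to 5 mitochondrial genes as deposited, and 0 to 2 and 0 to 1 after rescaling.

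The cytosolic median log2 fold change (1.02) was 0.77 after centring, 0.86 with a pseudocount of 1, 0.55 after quantile normalization, 1.21 for TPM and 0.26 after rescaling, and 0.95 to 1.10 or, rescaled, 0.13 to 0.38 with each rat left out. The mitochondrial median (0.73) was 0.48 after centring, 0.38 with a pseudocount of 1 and 0.035 after rescaling, and 0.37 to 1.01 or, rescaled, −0.26 to 0.29 with each rat left out. It was below 0 without MI/RI replicate 1 and, at −0.17, without sham replicate 1.

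Over all genes tested, 2790 were called higher and 805 lower as deposited. These counts were 1185 and 211 at the threshold of 0.01, 1441 and 1559 after quantile normalization, 772 and 2831 after rescaling, and 1528 to 2557 and 309 to 881 with each rat left out (461 to 928 and 1137 to 4832 after rescaling). Lower calls numbered 1554 after centring, 166 at a mean of at least 5 FPKM and 504 for TPM. Of the amino acid response genes, 13 were called higher as deposited, 6 at a mean of at least 5 FPKM and 7 after rescaling, and 12 to 13 or, rescaled, 3 to 8 with each rat left out. Of the ratios, 5 were higher without overlap with a pseudocount of 1, compared with 3. With the replicate block, as all same-numbered pairs, it was 4.

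The log2 fold change turned to below 0 after rescaling in Qars1 (−0.48), Lars1 (−0.48), Farsa (−0.30), Hars2 (−0.46), Rars2 (−0.36), Vars2 (−0.51), Wars2 (−0.54) and Aars2 (−0.031), after median centring in Wars2 (−0.042), and after quantile normalization in Lars1 (−0.10), Qars1 (−0.45) and Hars2 (−0.059), while Lars2 was above 0 for TPM (0.13). With each rat left out, with and without rescaling, the log2 fold change crossed 0 in Lars1 (−0.77 to 0.42), Qars1 (−0.72 to 0.41), Farsa (−0.53 to 0.60), Mars1 (−0.16 to 0.85), Nars1 (−0.13 to 0.96), Eprs (−0.10 to 0.92), Sars1 (−0.061 to 0.96), Hars1 (−0.0077 to 1.01), Lars2 (−1.24 to 0.28), Rars2 (−0.76 to 0.63), Vars2 (−0.70 to 0.40), Wars2 (−0.66 to 0.39), Hars2 (−0.53 to 0.40), Aars2 (−0.43 to 1.02) and Nars2 (−0.13 to 0.99). As deposited, Lars2 was the only one of these genes to cross 0 with each rat left out (−0.51 to 0.28). The cause of these changes was not tested.

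The replicate block changed no call of a synthetase gene (16 cytosolic and 5 mitochondrial genes called higher). With the replicate block and rescaling together, 0 cytosolic and 1 mitochondrial genes were called, 7 amino acid response genes were called higher, and over all genes 905 were called higher and 3224 lower. Without stated library totals, counting error could not be given for any value.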

Other observations

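Mitochondrial protein synthesis has further factors that use charged tRNA or prepare it. Of 20 mitochondrial translation factors and tRNA processing genes tested, 8 rose and none fell as deposited (limma, adjusted p under 0.05; none lower at an unadjusted p under 0.05), with a median log2 fold change of 0.56, where 25.5% of all genes were called higher and 7.36% lower. Without MI/RI replicate 1 the count was 5, with Mtrf1 (limma adjusted p = 0.088), Trmt10c (0.070) and Mto1 (0.055) no longer called. Tufm, the mitochondrial elongation factor that delivers charged tRNA to the ribosome, stood at 25.2, 13.1 and 9.55 FPKM in the sham hearts and at 130, 58.2 and 56.6 FPKM in the MI/RI hearts (log2 fold change 2.35, limma adjusted p = 0.0046). Tsfm, its exchange factor, had a log2 fold change of 2.22, Hsd17b10, a subunit of mitochondrial RNase P, one of 1.85, and Gfm1, the translocation factor, one of 1.85. These 4 genes were the ones called higher in this list after rescaling (1.57, 1.48, 1.07 and 1.08), and 1 gene, Mtrf1l, was then called lower. Each had its highest level in MI/RI replicate 1 and its highest sham level in sham replicate 1.

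Among the cytosolic elongation factors 4 of 5 found were tested and 2 rose, beside the same 25.5%. Eef1a2, the muscle form of the factor that carries charged tRNA, was measured at 6.25, 4.21 and 3.70 FPKM in the sham hearts and at 76.4, 21.9 and 24.4 FPKM in the MI/RI hearts (log2 fold change 2.88, limma adjusted p = 0.0033), and it was called after rescaling (2.12). Eef1g rose by 0.78 as deposited and had a log2 fold change of −0.01 after rescaling.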
